A study of Mus musculus with 17 samples.

Results

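The kidneys compared here all carried the PRCC-TFE3 fusion allele and floxed Hif1α alleles with Cre, and they differed in whether the Hif2α (Epas1) alleles were floxed as well. The members were chosen by genotype: the 3 libraries labelled PRCC-TFE3KI/HIF1a/HIF2a DKO (DKO kidneys) were set against the 4 labelled PRCC-TFE3KI/HIF1a KO (Hif1α KO kidneys), which makes 7 of the 17 libraries of the series. Both groups carried lsl-PRCC-TFE3 KI, HIF1af/f and KSP-Cre(+), and the DKO kidneys also carried HIF2af/f. Mice with the same fusion allele and Cre but no flox allele (KI, 3 libraries) and mice with HIF2af/f alone (Hif2α KO, 3 libraries) gave the corresponding step with Hif1α alleles intact. A group of 4 Cre(-) libraries, of which replicates 1 and 2 carried HIF1af/f, gave the level without recombination. Strain, sex and age are not in the labels used here, and the study describes kidneys taken at 8 months of age for histology. The question of this pair is what the loss of Hif2α adds once Hif1α is gone.

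Hypoxia-inducible factors are pairs of an oxygen-regulated α subunit and the stable partner ARNT. HIF1α, from Hif1a, is best known for driving glycolytic genes, and HIF2α, from Epas1, for erythropoietin, iron uptake and, in clear cell kidney cancer, growth and lipid storage. PRCC-TFE3 joins the nuclear protein PRCC to TFE3, a transcription factor that normally switches on lysosomal and metabolic genes and that drives a subtype of kidney cancer.

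The Ksp (Cadherin 16) promoter drives Cre in tubular epithelium, so endothelium, interstitium and immune cells kept their Hif1α and Hif2α alleles. RNA came from whole kidney, in which fewer cells of a type and less RNA per cell cannot be told apart. The deposited expected counts, which are estimated read counts per transcript, were summed to genes. Library totals were 16710464, 18654013, 19090161 and 24668827 counts in the 4 Hif1α KO kidneys and 18635282, 17347474 and 18496076 in the 3 DKO kidneys. Levels are CPM, the counts of a gene in every 1e6 of its library, with library sizes scaled by the trimmed mean of M-values. The floor of detection was set at 3 counts, or 0.122 to 0.18 CPM in these libraries, and covers counting error only. The Hif1α KO libraries were numbered 1 to 4 and the DKO libraries 11, 15 and 16, so an effect of the order of libraries cannot be told apart from that of genotype. A difference is a log2 fold change of DKO over Hif1α KO unless another pair is named. One edgeR fit of all 17 libraries covered 17011 of 35971 genes; genes whose quasi-likelihood p, after Benjamini-Hochberg adjustment, was under 0.05 passed the threshold.

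Both targeted genes kept their RNA in every library. Hif1a (ENSMUSG00000021109.13, GRCm38 chr12:73901375-73947530) stood at 163, 193, 189 and 198 CPM in Hif1α KO kidneys and at 188, 174 and 203 CPM in DKO kidneys. Epas1 (ENSMUSG00000024140.10, chr17:86753700-86833410) stood at 163, 169, 166 and 179 CPM in Hif1α KO kidneys and at 156, 165 and 158 CPM in DKO kidneys. The groups overlapped for both genes. The log2 fold change of Epas1 was -0.09 (standard error 0.09; edgeR, Benjamini-Hochberg adjusted p = 0.724). On the other background Epas1 was at 173, 192 and 179 CPM in KI and 146, 149 and 136 CPM in Hif2α KO kidneys, groups that did not overlap, with a log2 fold change of -0.33 (edgeR, Benjamini-Hochberg adjusted p = 0.0788). Gene-level counts sum all exons and all cells, and do not show whether the floxed exon was lost, so these values do not check the labels.

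Few genes separated the groups past the threshold. Of 17011 genes tested, 15 (0.0882%) were higher and 54 (0.317%) were lower in DKO kidneys, none of them with overlapping groups, with median log2 fold changes of 0.68 and -0.85, while the median over all genes tested was 0.002. At an unadjusted p under 0.05 the numbers were 1116 and 1091. Groups without overlap were common: in 2726 of the 17011 genes (16%) all DKO libraries lay on one side of all Hif1α KO libraries. On the first principal component of log2 CPM (28.8% of the variance) the DKO libraries stood at 22.7, 38.5 and 11.5 and the Hif1α KO libraries at -22.6, -51.3, 7.3 and -6, without overlap. On the second (20.4%) the groups overlapped. The Pearson correlation of log2 CPM across genes ranged from 0.971 to 0.9845 between libraries of the same group and from 0.961 to 0.9789 between libraries of different groups. The counts moved when single libraries were left out. Without DKO replicate 1, 2 or 3 the genes higher numbered 11, 2 and 2, and the genes lower 24, 4 and 14. Without Hif1α KO replicate 1, 2, 3 or 4 the genes higher numbered 7, 4, 8 and 3, and the genes lower 24, 14, 21 and 12. With limma (trend) on log2(TPM + 1), where TPM is a level scaled by transcript length and depth, the balance turned, with 50 genes higher and 24 lower, and on log2(TPM + 0.1) the numbers were 30 and 15. DESeq2's Wald test called several times as many genes in both directions. A fit without the Cre(-) libraries called far fewer in both. Their counts are given under the dependence on the processing. Beside genes past the threshold stands the number of the 15 alternative fits, of which 7 each left out a library, in which the gene also passed. Lrmda, Mt2, Prob1 and Slc25a22, all lower, and Crocc and the gene model Gm6969, both higher, passed in 15 of 15.

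**Figure D1:**
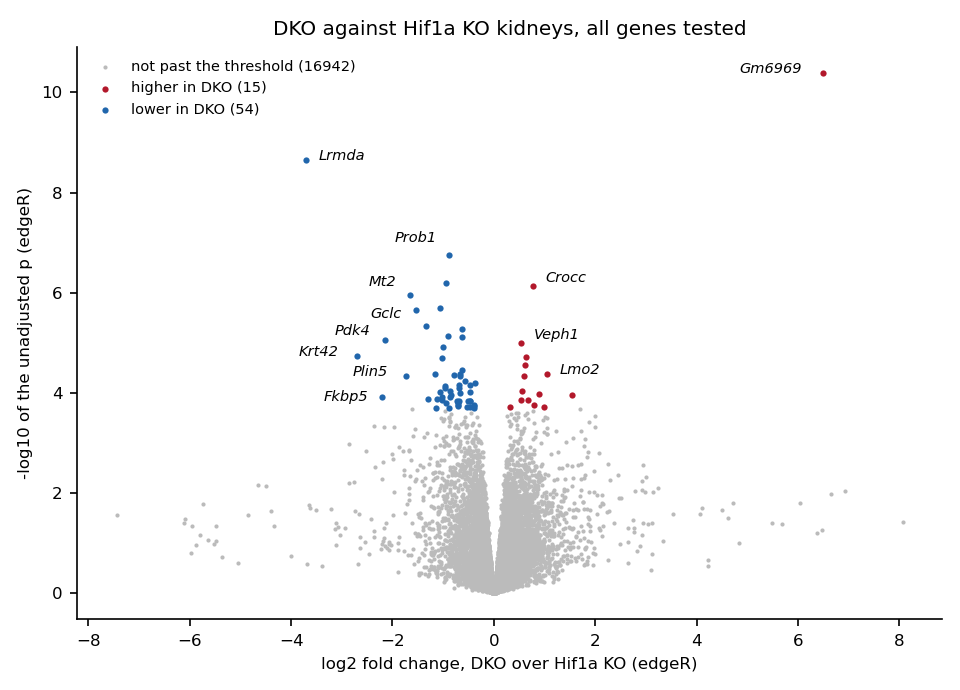
Log2 fold change of DKO over Hif1α KO kidneys (x axis) against -log10 of the unadjusted edgeR p (y axis) for 17011 genes. The 54 genes past the threshold as lower (blue) outnumber the 15 that were higher (red), a balance that limma on log2 TPM turned, and Gm6969 and Lrmda lie farthest out among those past the threshold.

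Pdk4 (chr6:5483351-5496309) encodes the kinase that shuts pyruvate dehydrogenase and so spares glucose when fat is burned. It stood at 702, 745, 457 and 664 CPM with Hif1α KO alone and at 116, 108 and 211 CPM in the 3 DKO kidneys. Every DKO library lay below every Hif1α KO library, and such a lack of overlap held in 16% of all genes tested. DKO levels were inside or below the range of KI kidneys, 207, 188 and 372 CPM. The log2 fold change was -2.15 (standard error 0.33; edgeR, Benjamini-Hochberg adjusted p = 0.0112), past the threshold in 13 of 15 alternative fits. With Hif1α alleles intact, Pdk4 was at 193, 168 and 242 CPM in Hif2α KO kidneys, which overlapped the KI range.

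Acot1, a cytosolic thioesterase that releases free fatty acids from acyl-CoA, was at 141, 141, 103 and 136 CPM in Hif1α KO and 48.5, 62.5 and 75.5 CPM in DKO kidneys, with a log2 step of -1.07 (standard error 0.20; edgeR, Benjamini-Hochberg adjusted p = 0.043). Acot2, Eci2, Acsl4, Ppara, Cpt1a, Ehhadh and Cyp4a14 were picked after their values were seen. The mitochondrial relative of Acot1, Acot2, was at 43.8, 40.1, 29.7 and 41.3 CPM (Hif1α KO) and 14.2, 18.7 and 24.5 CPM (DKO), which gives -1.02 (edgeR, Benjamini-Hochberg adjusted p = 0.0457). The reads of these near-identical neighbours can be split between them in counting, so their separate values are uncertain. Pex11a, which promotes division of peroxisomes, was at 60.2, 41.4, 46.1 and 50.7 CPM in Hif1α KO and 21.3, 22.4 and 27.4 CPM in DKO kidneys. The step in Pex11a was -1.06 (standard error 0.14; edgeR, Benjamini-Hochberg adjusted p = 0.00464), and it passed in 14 of 15 alternative fits. Smaller steps passed for Eci2, an isomerase of unsaturated fatty acid oxidation, at -0.52 (edgeR, Benjamini-Hochberg adjusted p = 0.0457), and for Acsl4, which activates long polyunsaturated fatty acids, at -0.48 (edgeR, Benjamini-Hochberg adjusted p = 0.0457). For Pex11a, Acot2 and Eci2 the KI kidneys lay below all Hif1α KO kidneys, with Pex11a at 23.4, 27.4 and 30.5 CPM, and for Acot1 and Acsl4 they overlapped. The groups did not overlap in these genes, which holds for 16% of all genes tested. Acot1 passed in 5 of 15 alternative fits, Acot2 in 5 of 15, Eci2 in 2 of 15 and Acsl4 in 2 of 15. Of the list of fatty acid oxidation and ketone genes, 25 of its 25 members were tested, 0 passed as higher and 1 as lower, and the median log2 fold change was -0.18, against 0.002 over all genes tested. Of its members 21 had a negative value and 8 were lower at an unadjusted p under 0.05, against 49.5% and 6.41% of all genes tested. Among all genes tested 0.317% passed as lower. Pdk4 alone passed. The receptor Ppara, which drives many of these genes in fasting, was at 29.3, 14.0, 19.6 and 18.9 CPM in Hif1α KO and 11.1, 10.4 and 14.0 CPM in DKO kidneys, a log2 fold change of -0.78 (edgeR, Benjamini-Hochberg adjusted p = 0.224). Cpt1a, which brings fatty acids into mitochondria, was at 348, 299, 289 and 300.0 CPM (Hif1α KO) and 199, 266 and 264 CPM (DKO), without overlap, and its log2 fold change of -0.34 (edgeR, Benjamini-Hochberg adjusted p = 0.266) missed the threshold. The peroxisomal enzyme Ehhadh was at 302, 127, 158 and 168 CPM (Hif1α KO) and 65.0, 139.7 and 122 CPM (DKO) and the fatty acid hydroxylase Cyp4a14 at 372, 59.0, 195 and 187 CPM (Hif1α KO) and 46.7, 84.5 and 128 CPM (DKO). Both overlapped between groups.

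Of the coat proteins of lipid droplets, 3 passed as lower and others did not. Plin2 (adipophilin), which covers droplets in most cells and is often named among HIF2α targets, stood at 136, 156, 103 and 125 CPM in Hif1α KO and 67.2, 64.8 and 80.9 CPM in DKO kidneys. KI kidneys held 96.0, 86.6 and 116 CPM, above all DKO kidneys and overlapping the Hif1α KO range. The log2 fold change of DKO over Hif1α KO was -0.87 (standard error 0.17; edgeR, Benjamini-Hochberg adjusted p = 0.043), past the threshold in 6 of 15 alternative fits. Plin4, which coats new droplets, stood at 236, 260.4, 245 and 282 CPM in Hif1α KO and 149, 91.2 and 135 CPM in DKO kidneys. DKO over Hif1α KO gave a log2 fold change of -1.03 (standard error 0.17; edgeR, Benjamini-Hochberg adjusted p = 0.0188), with 8 of 15 alternative fits past the threshold. In Cre(-) kidneys Plin4 was at 8.98, 12.0, 8.74 and 10.0 CPM. It was also lower in Hif2α KO than in KI kidneys, at -0.80 (edgeR, Benjamini-Hochberg adjusted p = 0.0423). Plin5, which tethers droplets to mitochondria, was the rarest of these, at 11.0, 5.61, 7.42 and 5.70 CPM in Hif1α KO and 2.05, 1.53 and 3.12 CPM in DKO kidneys. This was a log2 fold change of -1.73 (standard error 0.31; edgeR, Benjamini-Hochberg adjusted p = 0.0296), and on the other background it was 0.00. Of the list of lipid droplet and lipolysis genes, 24 of its 24 members were tested, 0 passed as higher and 3 as lower, and the median log2 fold change was -0.14. Of these, 16 of 24 were negative, and 0 higher and 5 lower at an unadjusted p under 0.05. Among all genes tested 0.317% passed as lower, 49.5% were negative, and 6.56% were higher and 6.41% lower at that p. Plin2, Plin4 and Plin5 were the 3 that passed, and Plin5 did so in 7 of 15 alternative fits. Their relatives Plin1, at 0.96, and Plin3, at -0.06, and the droplet proteins Cidea, at 1.45, and Cidec, at 0.09, missed the threshold.

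Angptl4, a secreted inhibitor of lipoprotein lipase that responds both to hypoxia and to fatty acids, was at 248.9, 182, 134 and 149 CPM in Hif1α KO and 13.6, 21.3 and 68.5 CPM in DKO kidneys. The groups did not overlap, as in 16% of all genes tested. The spread among DKO kidneys was wide, and the log2 fold change of -2.37 (standard error 0.53; edgeR, Benjamini-Hochberg adjusted p = 0.0685) missed the threshold. Over the 15 alternative fits its value ranged from -3.35 to -1.99. Angptl4 passed in 4 of them, which included the fit without DKO replicate 3. Of the lipid synthesis list, 29 of its 29 members were tested, 0 passed as higher and 0 as lower, and the median log2 fold change was 0.07. Of these, 9 of 29 were negative, and 2 higher and 2 lower at an unadjusted p under 0.05, against 49.5%, 6.56% and 6.41% of all genes tested. Its most abundant member by mean CPM over all 17 libraries, Scd1, was at 444, 278, 292 and 248.7 CPM (Hif1α KO) and 466, 401 and 411 CPM (DKO), which overlapped. Adipocytes express perilipins, so their markers are given beside these genes. The summed TPM of 13 adipocyte markers was 308, 858, 196 and 164 in Hif1α KO and 632, 139 and 537 in DKO kidneys. These sums overlapped between the groups, 0 of the 13 members passed, and the most abundant, Cfd, was at 35.0, 183, 13.2 and 12.1 CPM (Hif1α KO) and 118, 8.11 and 60.5 CPM (DKO). The part of fat in the perilipin values was not tested.

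**Figure D2:**
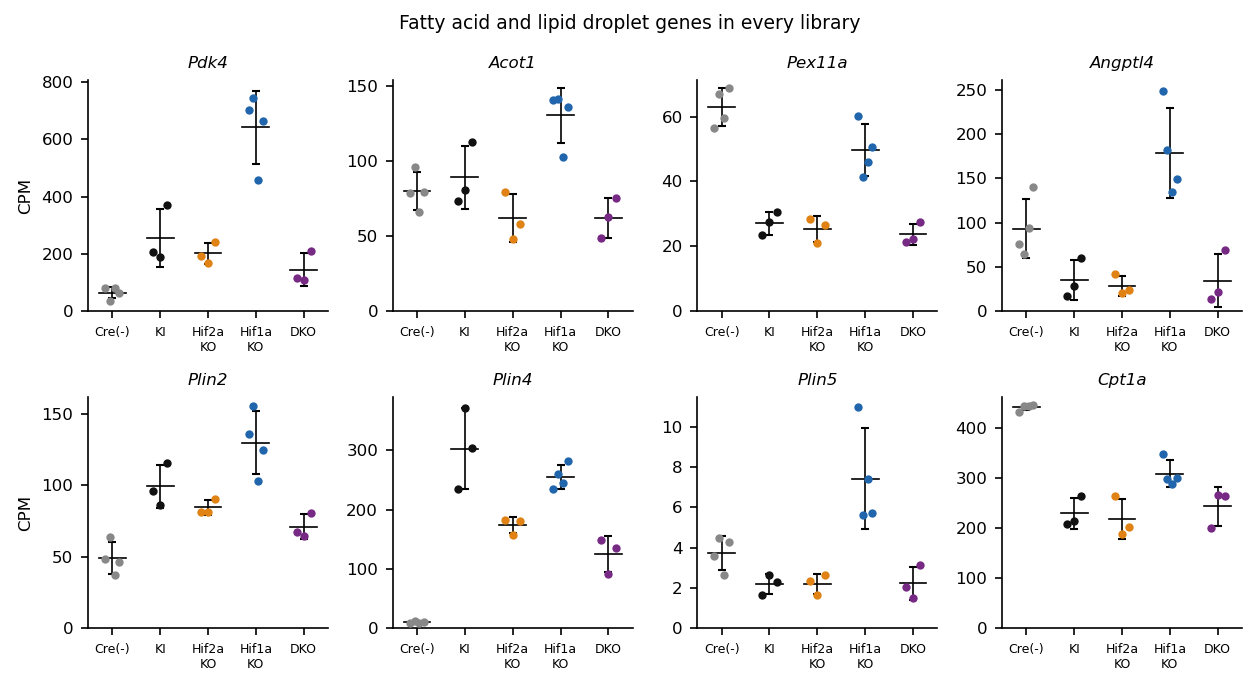
CPM of 8 fatty acid and lipid droplet genes (y axes, from 0) in every library of the 5 groups (x axis), with points for libraries and bars for mean ± SD. Pdk4, Acot1, Pex11a, Plin2, Plin4 and Plin5 passed the threshold in DKO against Hif1α KO kidneys, and Angptl4 and Cpt1a did not. Hif1α KO libraries stand above all DKO libraries in each panel, and 16% of all genes tested had groups without overlap.

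Promoters were read for genes past the threshold, and those of 4 lower genes are shown as examples of the motifs searched. RefSeq promoters (GRCm38.p6, the 250 bases before each start) matched 53 of the 69 genes past the threshold, and 64 promoters belonged to 44 genes lower in DKO kidneys. The core of the HIF site, ACGTG or GCGTG on either strand, was in 33 of those 64 promoters (51.6%) and in 38.6% of all 32851 promoters. The half-site of nuclear receptors such as PPARα, AGGTCA, was in 14.1% and in 14.0%. The E-box CACGTG, which contains ACGTG, was in 6.25% and 6.02%, and the core of the antioxidant response element, TGACNNNGC, in 7.81% and 10.2%. Only 10 promoters belonged to 9 genes higher in DKO kidneys. Of these, 40.0% held the HIF core, 0.0% the half-site, 10.0% the E-box and 30.0% the antioxidant core. A match of these letters is a description and not a binding site. By gene, the HIF core was in 25 of the 44 lower genes and in 11226 of all 27025 genes with promoters. The full set includes genes not tested in these kidneys, and some genes have several promoters. The shares thus compare unlike sets, and no enrichment is read from them. Below, capitals mark, on either strand, a HIF core and the half-site in Plin2 (chr4:86670060-86670309, minus strand), the HIF core in Pdk4 (chr6:5496279-5496528, minus strand), the E-box in the clock gene Cry1 (chr10:85185055-85185304, minus strand) and the antioxidant element core in 1 of 3 promoters of the thioredoxin reductase gene Txnrd1 (chr10:82858956-82859205, plus strand), each 5′ to 3′ on its gene's strand.
Plin2: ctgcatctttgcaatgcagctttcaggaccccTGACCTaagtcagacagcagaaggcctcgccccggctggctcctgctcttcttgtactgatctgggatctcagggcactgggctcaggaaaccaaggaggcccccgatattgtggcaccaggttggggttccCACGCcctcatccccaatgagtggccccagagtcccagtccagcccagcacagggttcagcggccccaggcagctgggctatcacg
Pdk4: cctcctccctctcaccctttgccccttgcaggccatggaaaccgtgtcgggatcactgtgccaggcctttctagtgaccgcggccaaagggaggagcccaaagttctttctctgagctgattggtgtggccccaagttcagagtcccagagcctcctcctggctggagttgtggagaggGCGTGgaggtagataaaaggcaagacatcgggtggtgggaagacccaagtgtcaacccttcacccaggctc
Cry1: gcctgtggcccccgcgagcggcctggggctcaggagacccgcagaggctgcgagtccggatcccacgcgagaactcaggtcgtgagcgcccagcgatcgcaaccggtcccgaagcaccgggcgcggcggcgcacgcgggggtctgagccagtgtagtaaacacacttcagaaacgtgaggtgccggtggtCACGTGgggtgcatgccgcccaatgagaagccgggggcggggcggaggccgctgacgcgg
Txnrd1: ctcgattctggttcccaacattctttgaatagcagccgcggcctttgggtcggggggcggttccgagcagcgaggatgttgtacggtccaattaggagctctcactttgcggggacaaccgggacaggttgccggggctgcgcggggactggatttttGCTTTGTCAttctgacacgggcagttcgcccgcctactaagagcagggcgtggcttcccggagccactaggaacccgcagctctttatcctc

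Gclc encodes the catalytic subunit of the enzyme that limits glutathione synthesis, a classical target of the transcription factor NRF2. It stood at 974, 932, 1189 and 1348 CPM in Hif1α KO and 376, 332 and 444 CPM in DKO kidneys. All 4 Hif1α KO libraries lay above every library of the other 4 groups, whose highest value was 711 CPM. Gclc had a log2 fold change of -1.53 (standard error 0.21; edgeR, Benjamini-Hochberg adjusted p = 0.00464), past the threshold in 14 of 15 alternative fits. Hmox1, the heme-degrading oxygenase, was at 89.7, 95.3, 135 and 185 CPM in Hif1α KO and 55.0, 48.8 and 49.9 CPM in DKO kidneys, with a log2 step of -1.30 (standard error 0.26; edgeR, Benjamini-Hochberg adjusted p = 0.0457). KI kidneys, at 92.0, 103 and 188 CPM, overlapped the Hif1α KO range, and Hmox1 passed in 4 of 15 alternative fits. Srxn1, which repairs oxidised peroxiredoxins, was at 98.0, 101, 113 and 124 CPM (Hif1α KO) and 70.8, 60.2 and 65.7 CPM (DKO), a log2 fold change of -0.73 (edgeR, Benjamini-Hochberg adjusted p = 0.0457). Txnrd1, shown above, was at 161, 195, 206 and 222 CPM (Hif1α KO) and 150.5, 128 and 128 CPM (DKO), a log2 fold change of -0.53 (edgeR, Benjamini-Hochberg adjusted p = 0.0495), and it passed in 2 of 15 alternative fits. Of the NRF2 list, 16 of its 17 members were tested, 0 passed as higher and 4 as lower, and the median log2 fold change was -0.43. Of the 16 members tested 15 had negative values, and 11 were lower at an unadjusted p under 0.05. Over all genes tested 0.317% passed as lower, 49.5% had negative values and 6.41% were lower at that p. Srxn1 passed in 4 of 15 alternative fits. In Hif2α KO against KI kidneys 0 members of the list passed and the median was -0.08.

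The metallothioneins Mt1 and Mt2, small proteins that bind zinc and copper and respond to metals, oxidants and glucocorticoids, both fell. Mt2 was at 84.8, 85.2, 65.8 and 53.2 CPM in Hif1α KO and 20.1, 22.3 and 26.3 CPM in DKO kidneys, with a log2 step of -1.66 (standard error 0.21; edgeR, Benjamini-Hochberg adjusted p = 0.00312). Mt1 was at 239, 221, 212 and 184 CPM (Hif1α KO) and 93.2, 104 and 96.2 CPM (DKO), a log2 fold change of -1.13 (edgeR, Benjamini-Hochberg adjusted p = 0.0457). KI kidneys held 30.6, 25.0 and 44.0 CPM of Mt2, below all Hif1α KO kidneys, and 153, 122 and 200.1 CPM of Mt1, which overlapped them. The zinc and iron importer Slc39a14 was at 109, 109, 97.5 and 120.1 CPM (Hif1α KO) and 60.4, 51.9 and 65.4 CPM (DKO), a log2 fold change of -0.88 (edgeR, Benjamini-Hochberg adjusted p = 0.0495), past the threshold in 3 of 15 alternative fits. Of the iron handling list, 18 of its 20 members were tested, 0 passed as higher and 2 as lower, and the median log2 fold change was -0.18. Of these, 14 of 18 were negative, and 0 higher and 4 lower at an unadjusted p under 0.05. The shares of all genes tested were 0.317% past the threshold as lower, 49.5% negative, and 6.56% higher and 6.41% lower at that p. Hmox1 and Slc39a14 were the members that passed, and members reached 0.36 on the other side. Mthfd2, a mitochondrial folate enzyme and ATF4 target, was at 16.8, 16.5, 20.2 and 22.2 CPM (Hif1α KO) and 11.6, 10.2 and 9.47 CPM (DKO), a log2 fold change of -0.86 (edgeR, Benjamini-Hochberg adjusted p = 0.0457). It was the single member that passed among ATF4 targets, of which 16 of 17 were tested, with a median of -0.21; 13 of 16 were negative, and 1 higher and 6 lower at an unadjusted p under 0.05. Mt1 passed in 7 of 15 alternative fits and Mthfd2 in 4 of 15.

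Fkbp5, a chaperone that is induced by glucocorticoids and dampens their receptor, stood at 378, 259, 321 and 335 CPM in Hif1α KO and 57.2, 48.1 and 104 CPM in DKO kidneys. KI kidneys, at 62.7, 210.2 and 236 CPM, lay below all Hif1α KO kidneys and overlapped the DKO range. The log2 fold change was -2.21 (standard error 0.43; edgeR, Benjamini-Hochberg adjusted p = 0.0457), past the threshold in 5 of 15 alternative fits. Tsc22d3, Zbtb16 and Sgk1 were picked after their values were seen and come from no list, so nothing is read from their common direction. Tsc22d3 (GILZ) was at 253, 189, 212 and 249.5 CPM (Hif1α KO) and 70.5, 55.8 and 93.5 CPM (DKO), a log2 fold change of -1.62 (edgeR, Benjamini-Hochberg adjusted p = 0.0507), and Zbtb16 at 117, 107, 108 and 122 CPM (Hif1α KO) and 17.0, 14.5 and 27.5 CPM (DKO), a log2 fold change of -2.53 (edgeR, Benjamini-Hochberg adjusted p = 0.113). Sgk1, a kinase that acts in sodium transport, was at 278, 225, 235 and 284 CPM (Hif1α KO) and 169, 87.4 and 131 CPM (DKO), a log2 fold change of -0.98 (edgeR, Benjamini-Hochberg adjusted p = 0.102). Each of these 3 missed the threshold, without overlap between groups, as in 16% of all genes tested.

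Cry1, a repressor of the circadian clock, was at 22.3, 19.1, 21.4 and 26.4 CPM in Hif1α KO and 9.30, 8.48 and 8.54 CPM in DKO kidneys, with 9.25, 15.9 and 13.8 CPM in KI kidneys. The log2 step was -1.34 (standard error 0.19; edgeR, Benjamini-Hochberg adjusted p = 0.00873), past the threshold in 11 of 15 alternative fits. Per1 was at 135, 146, 145 and 153 CPM (Hif1α KO) and 84.9, 66.8 and 101 CPM (DKO), a log2 fold change of -0.78 (edgeR, Benjamini-Hochberg adjusted p = 0.156), which missed the threshold. Of the clock list, 16 of its 16 members were tested, 0 passed as higher and 1 as lower, and the median log2 fold change was -0.15. Of these, 11 of 16 were negative, and 1 higher and 5 lower at an unadjusted p under 0.05. Among all genes tested 0.317% passed as lower, 49.5% were negative, and 6.56% were higher and 6.41% lower at that p. Members went both ways, from -1.34 for Cry1 and -0.91 for Per2 to 0.56 for Nr1d1 and 0.78 for Dbp. The hour of collection is not in the labels used here, and its part in these values was not tested.

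**Figure D3:**
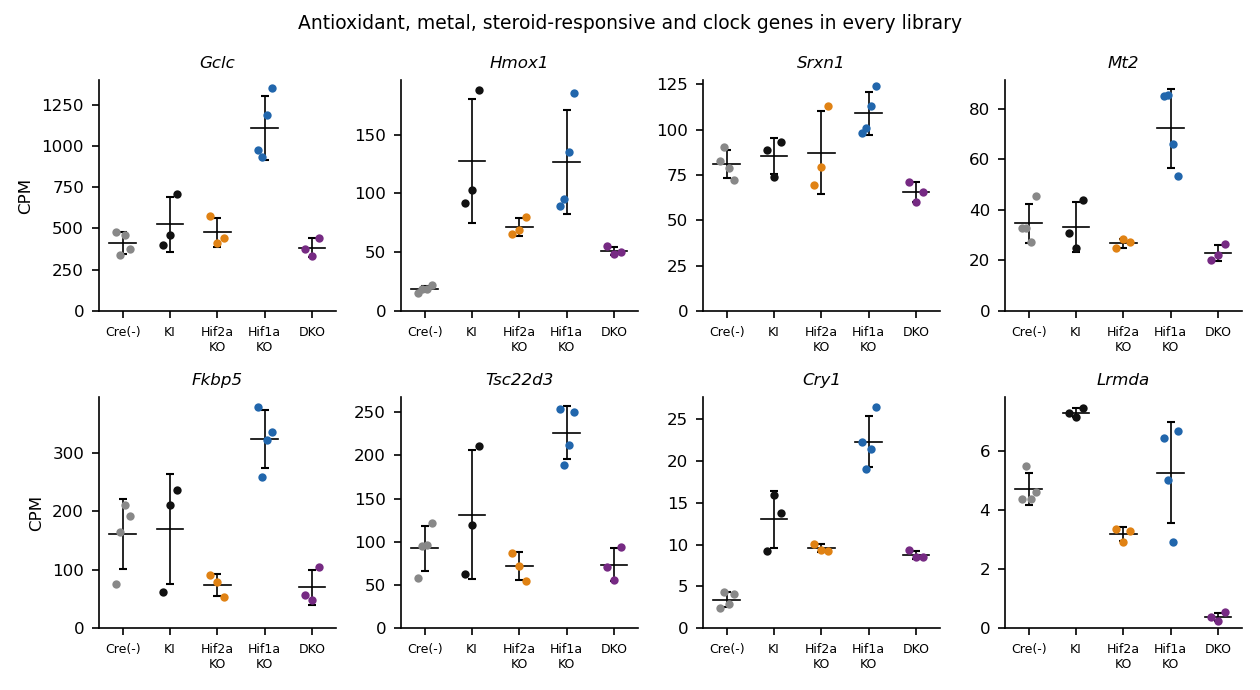
CPM of 8 genes (y axes, from 0) in every library of the 5 groups (x axis), with points for libraries and bars for mean ± SD. Gclc, Mt2, Fkbp5 and Cry1 stand higher in the 4 Hif1α KO libraries than in all DKO, Hif2α KO and KI libraries, and Lrmda stands lowest in the 3 DKO libraries.

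HIF regulators and targets were read next. Of 12 regulators, 12 were tested and 0 passed in either direction, with a median log2 fold change of -0.14. Of these, 8 of 12 were negative, and 0 higher and 4 lower at an unadjusted p under 0.05. The shares of all genes tested were 0.317% past the threshold as lower, 49.5% negative, and 6.56% higher and 6.41% lower at that p. Hif3a, which encodes another α subunit, had the lowest value, -1.87 (edgeR, Benjamini-Hochberg adjusted p = 0.103). Egln3, the prolyl hydroxylase most induced by hypoxia, stood at 11.8, 9.50, 10.6 and 9.37 CPM in Hif1α KO and 9.45, 10.8 and 12.6 CPM in DKO kidneys. These levels overlapped, with a log2 fold change of 0.09 (edgeR, Benjamini-Hochberg adjusted p = 0.875). Of targets that prefer HIF1α, 28 of 29 were tested and 0 passed, with a median of -0.13, and 22 of 28 were negative, and 0 higher and 4 lower at an unadjusted p under 0.05. The glycolytic enzymes Gapdh, Aldoa and Gpi1 gave -0.26, -0.24 and -0.27 (edgeR, Benjamini-Hochberg adjusted p = 0.499, 0.447 and 0.43). Their groups did not overlap, as in 16% of all genes tested. Eno1 gave -0.25 with overlap, and all of these enzymes missed the threshold. Aldoa, for example, was at 990.5, 947, 861 and 882 CPM in Hif1α KO and 799.8, 778 and 759 CPM in DKO kidneys. Eno1 reads can be shared with near-identical copies, so its value is uncertain, as is that of Gapdh.

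Of targets that prefer HIF2α, 28 of 30 were tested, 0 passed as higher and 1, Plin2, as lower. The median was -0.17, with members from -2.37 to 0.33. Of these, 18 of 28 were negative, and 0 higher and 4 lower at an unadjusted p under 0.05. Among all genes tested 0.317% passed as lower, 49.5% were negative, and 6.56% were higher and 6.41% lower at that p. Ndrg1, a stress-induced differentiation gene, was the most abundant, at 1606, 1273, 1042 and 1489 CPM (Hif1α KO) and 868, 677 and 1004 CPM (DKO), a log2 fold change of -0.67 (edgeR, Benjamini-Hochberg adjusted p = 0.308). Ccnd1, the G1 cyclin, was at 696, 946, 759.5 and 855 CPM (Hif1α KO) and 965, 634 and 728 CPM (DKO), and the angiogenic factor Vegfa at 187, 196, 169.5 and 177 CPM (Hif1α KO) and 159, 188 and 179.5 CPM (DKO). Both overlapped between groups, with log2 fold changes of -0.07 and -0.06. Epo, the classical HIF2α target made by interstitial cells that this Cre does not reach, was too rare to test: it had 4, 0, 1 and 0 counts in Hif1α KO kidneys and 1 count in each of the 3 DKO kidneys.

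Lrmda, a melanosome-related gene (chr14:22019712-23056085), had the lowest log2 fold change of the 54 lower genes. It stood at 6.45, 5.04, 2.94 and 6.67 CPM in Hif1α KO kidneys and at 0.390, 0.263 and 0.537 CPM in DKO kidneys. With Hif1α alleles intact it was at 7.30, 7.16 and 7.47 CPM in KI and 3.37, 2.93 and 3.29 CPM in Hif2α KO kidneys, so it was lower with HIF2af/f on both backgrounds. The log2 fold change was -3.71 (standard error 0.30; edgeR, Benjamini-Hochberg adjusted p = 1.91e-05) on the Hif1α KO background and -1.19 (edgeR, Benjamini-Hochberg adjusted p = 0.0341) on the other. The DKO levels of Lrmda were not far above the floor, 0.161 to 0.173 CPM in those libraries, so the size of the first step is uncertain. Over the 15 alternative fits it ranged from -3.98 to -2.47. Krt42, a type I keratin, was at 3.17, 3.84, 2.14 and 3.01 CPM in Hif1α KO and 0.633, 0.316 and 0.439 CPM in DKO kidneys, with a log2 step of -2.69 (standard error 0.44; edgeR, Benjamini-Hochberg adjusted p = 0.0188). Krt42 passed in 10 of 15 alternative fits, with values from -2.98 to -1.32, and its DKO levels were also not far above the floor. In Cre(-) kidneys it was under the amount that 3 counts give.

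Nr1h4, the bile acid receptor FXR, was at 84.8, 46.8, 49.2 and 60.7 CPM in Hif1α KO and 24.6, 27.0 and 29.8 CPM in DKO kidneys, a log2 fold change of -1.15 (edgeR, Benjamini-Hochberg adjusted p = 0.0296). Slc25a22, a mitochondrial glutamate carrier, was at 36.8, 35.7, 38.2 and 41.3 CPM (Hif1α KO) and 19.3, 18.1 and 22.1 CPM (DKO), a log2 fold change of -0.94 (edgeR, Benjamini-Hochberg adjusted p = 0.0025). Prob1 was at 59.4, 46.2, 50.2 and 59.8 CPM (Hif1α KO) and 31.1, 26.8 and 29.3 CPM (DKO), a log2 fold change of -0.89 (edgeR, Benjamini-Hochberg adjusted p = 0.000982). No DKO library reached the lowest Hif1α KO library in these 3 genes, and groups did not overlap in 16% of all genes tested. Nr1h4 passed in 8 of 15 alternative fits. Nr1h4 was at 26.7, 25.6 and 41.5 CPM in KI kidneys, overlapping the DKO range, and at 79.2, 83.1, 78.6 and 84.3 CPM in Cre(-) kidneys, overlapping the Hif1α KO range.

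Genes higher in DKO kidneys were fewer. Crocc, which builds the rootlet of cilia, stood at 35.5, 33.8, 35.1 and 33.2 CPM in Hif1α KO and 55.1, 67.1 and 53.7 CPM in DKO kidneys. KI kidneys, at 56.0, 50.6 and 46.5 CPM, overlapped the DKO range. Crocc had a log2 fold change of 0.77 (standard error 0.10; edgeR, Benjamini-Hochberg adjusted p = 0.0025). Lmo2, a bridging factor of blood and endothelial transcription complexes, was at 12.8, 11.6, 16.0 and 11.5 CPM (Hif1α KO) and 25.6, 32.2 and 23.2 CPM (DKO), with a log2 step of 1.06 (standard error 0.19; edgeR, Benjamini-Hochberg adjusted p = 0.0296). Tnfsf10, the death ligand TRAIL, was at 29.1, 25.7, 27.2 and 29.6 CPM (Hif1α KO) and 36.4, 44.3 and 48.7 CPM (DKO), a log2 fold change of 0.63 (edgeR, Benjamini-Hochberg adjusted p = 0.0188), and it was also higher in Hif2α KO than in KI kidneys at 0.70 (edgeR, Benjamini-Hochberg adjusted p = 0.0145). Phf11d showed the same on both backgrounds, with 0.79 (edgeR, Benjamini-Hochberg adjusted p = 0.0495) and 1.05 (edgeR, Benjamini-Hochberg adjusted p = 0.0159). These genes passed in 7 of 15, 10 of 15 and 4 of 15 alternative fits.

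Arhgap24 and Mgat3 were higher in every Cre(-) kidney than in any other library. Arhgap24, a brake on Rac that podocytes and tubules use, was at 121, 90.7, 109 and 96.5 CPM in Hif1α KO, 139.8, 166 and 155 CPM in DKO and 318, 280.2, 309.9 and 304 CPM in Cre(-) kidneys. Mgat3, which adds a bisecting sugar to glycoproteins, was at 40.6, 34.0, 36.8 and 38.5 CPM (Hif1α KO) and 54.4, 52.4 and 57.2 CPM (DKO), against 169, 154, 144 and 159.8 CPM in Cre(-) kidneys. Their log2 fold changes were 0.56 (edgeR, Benjamini-Hochberg adjusted p = 0.043) and 0.54 (edgeR, Benjamini-Hochberg adjusted p = 0.0457). Hpgd, the enzyme that inactivates prostaglandins, was at 22.0, 23.8, 24.6 and 20.1 CPM (Hif1α KO) and 29.8, 39.3 and 34.4 CPM (DKO), a log2 fold change of 0.61 (edgeR, Benjamini-Hochberg adjusted p = 0.0246). Veph1 was at 36.2, 39.3, 40.3 and 36.8 CPM (Hif1α KO) and 50.5, 52.8 and 63.6 CPM (DKO), a log2 fold change of 0.54 (edgeR, Benjamini-Hochberg adjusted p = 0.0123), past the threshold in 11 of 15 alternative fits. Klhdc7a was at 130.4, 134, 142 and 129 CPM (Hif1α KO) and 206, 188 and 212 CPM (DKO), a log2 fold change of 0.59 (edgeR, Benjamini-Hochberg adjusted p = 0.0296). Apela, a hormone of the apelin receptor, rose by 0.68 (edgeR, Benjamini-Hochberg adjusted p = 0.0457) and the kinase Dapk2 by 0.99 (edgeR, Benjamini-Hochberg adjusted p = 0.0495) on the log2 scale. Tgfbr2, the TGF-β receptor, had the smallest step of the 15 genes, 0.31 (edgeR, Benjamini-Hochberg adjusted p = 0.0495), and passed in 2 of 15 alternative fits. The number was 6 of 15 for Arhgap24, Mgat3 and Apela, 7 of 15 for Hpgd and Klhdc7a, and 4 of 15 for Dapk2.

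The gene model Gm6969 (chr12:24638669-24639010), a processed pseudogene, fell outside the rule for named genes and is given because of its size. It was at 0.358, 0.675, 1.05 and 0.820 CPM in Hif1α KO and 43.2, 82.3 and 75.9 CPM in DKO kidneys. The same step appeared between KI (0.402, 0.431 and 1.08 CPM) and Hif2α KO kidneys (84.1, 90.7 and 83.5 CPM), and Cre(-) kidneys held 0, 0.642, 0.463 and 1.33 CPM. All 6 libraries with HIF2af/f were thus above 43 CPM and the 11 libraries without it at or below 1.33 CPM. The log2 fold changes were 6.49 (edgeR, Benjamini-Hochberg adjusted p = 6.94e-07) and 7.07 (edgeR, Benjamini-Hochberg adjusted p = 2.11e-06). A pseudogene shares sequence with its parent, so the locus these reads come from is uncertain.

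Epas1 lies on chromosome 17, and genes close to it were read as a group because flox alleles are inherited with their surroundings. Within 5 Mb of Epas1 32 other genes were tested, of which 2 (6.25%) passed, both lower in DKO kidneys, against 0.406% of all genes tested. Within 2 Mb it was 1 of 22 (4.55%) and within 10 Mb 2 of 68 (2.94%). These were Cox7a2l (chr17:83501918-83517330), which helps assemble respiratory supercomplexes, and Ppp1r21 (chr17:88530118-88588367), an endosomal protein. Cox7a2l was at 168, 174, 149.7 and 146 CPM in Hif1α KO and 124, 92.4 and 92.3 CPM in DKO kidneys, and at 181, 188 and 222 CPM in KI and 98.1, 110.4 and 108 CPM in Hif2α KO kidneys. Ppp1r21 was at 93.9, 139.9, 101 and 116 CPM in Hif1α KO and 70.2, 60.3 and 57.8 CPM in DKO kidneys. Each gene was lower with HIF2af/f on both backgrounds without overlap: the log2 fold changes of Cox7a2l were -0.63 (edgeR, Benjamini-Hochberg adjusted p = 0.0295) and -0.90 (edgeR, Benjamini-Hochberg adjusted p = 0.00661), and those of Ppp1r21 -0.84 (edgeR, Benjamini-Hochberg adjusted p = 0.045) and -1.18 (edgeR, Benjamini-Hochberg adjusted p = 0.0101). In Hif2α KO against KI kidneys 3 of the 32 passed, all lower, against 1.39% of all genes tested there, the other one being Ston1, at -0.85 (edgeR, Benjamini-Hochberg adjusted p = 0.0423). The median over the 32 genes was 0.071 on the Hif1α KO background and -0.075 with Hif1α alleles. Cox7a2l passed in 6 of 15 alternative fits and Ppp1r21 in 5 of 15. Whether these values come from HIF2α loss or from sequence carried with the flox allele cannot be told apart, since every HIF2af/f library was also KSP-Cre(+).

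The same step was then read on the background with Hif1α alleles, which shares no library with the first. In Hif2α KO against KI kidneys 126 genes (0.741%) were higher and 110 (0.647%) lower. Of the 54 genes lower in DKO than in Hif1α KO kidneys, 51 (94.4%) also had a negative value in Hif2α KO against KI kidneys, as did 51.1% of all genes tested. Of the 15 genes higher, 14 (93.3%) had a positive value there, as did 48.9% of all genes tested. Past the threshold in both were 11 lower genes, 20.4% of the 54 and 10.0% of the 110, and 3 higher genes, 20.0% of the 15 and 2.38% of the 126. Among the 11 were Plin4, Tmcc3, Cox7a2l, Cdc14b, Myo15b, Ppp1r21, Cpeb3, Tmem82, Mb21d2 and Lrmda, and the 3 were Tnfsf10, Gm6969 and Phf11d. The steps were smaller on that background: the median over the 54 genes was -0.85 in DKO against Hif1α KO and -0.40 in Hif2α KO against KI kidneys, although genes chosen in the first comparison are drawn toward large values there. Both steps use one fit and its shared estimate of the spread. The number of genes called in Hif2α KO against KI kidneys, 236 in all, was 857, 88 and 13 without KI replicate 1, 2 or 3, and 129, 43 and 79 without Hif2α KO replicate 1, 2 or 3. Adipocyte markers were uneven there, with summed TPM of 189, 4545 and 300.2 in KI and 115, 227 and 559.8 in Hif2α KO kidneys, and their part was not tested. Medians over the 41 lists there ranged from -1.95 for adipocytes to 1.19 for the thick ascending limb, against -0.007 over all genes tested. Red cells had -1.61, the cell cycle 0.69 and B and plasma cells 0.72. Proximal tubule had 0.77, principal cells 0.87 and T and NK cells 1.1. The part of cell composition in that step was not tested.

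A direct test of the difference between the steps called no gene. edgeR's quasi-likelihood test of the interaction, the step on the Hif1α KO background minus the step with Hif1α alleles, gave 0 of 17011 genes (0%) past the threshold, and 1013 at an unadjusted p under 0.05. DESeq2's Wald test called 31 genes, and limma with either TPM offset called 0. Without Hif1α KO replicate 3 edgeR called 1 gene, and without Hif2α KO replicate 1 or KI replicate 1 it called 2 each. The genes of smallest p therefore missed the threshold. Thrb, a thyroid hormone receptor, was at 62.7, 69.4, 63.2 and 75.3 CPM in Hif1α KO and 88.6, 92.2 and 93.2 CPM in DKO kidneys, but at 98.3, 115 and 117 CPM in KI and 87.9, 74.3 and 74.2 CPM in Hif2α KO kidneys. The step was thus upward on one background and downward on the other, a difference of 0.92 (edgeR, Benjamini-Hochberg adjusted p = 0.0754). Lrmda had a difference of -2.51 with the same adjusted p of 0.0754 from edgeR. Klhdc7a, Trappc12, Cpne1 and Tm6sf1 were the others among the 3 named genes of smallest p in each direction. Their differences were 0.78, 0.56, -1.24 and -1.41 (edgeR, Benjamini-Hochberg adjusted p = 0.277 for each). Slc25a22, at -0.84 with the same adjusted p of 0.277 from edgeR, had a smaller unadjusted p than Klhdc7a. Pdk4 had a difference of -1.80 and Gclc of -1.39, with adjusted p of 0.483 and 0.277 from edgeR.

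**Figure D4:**
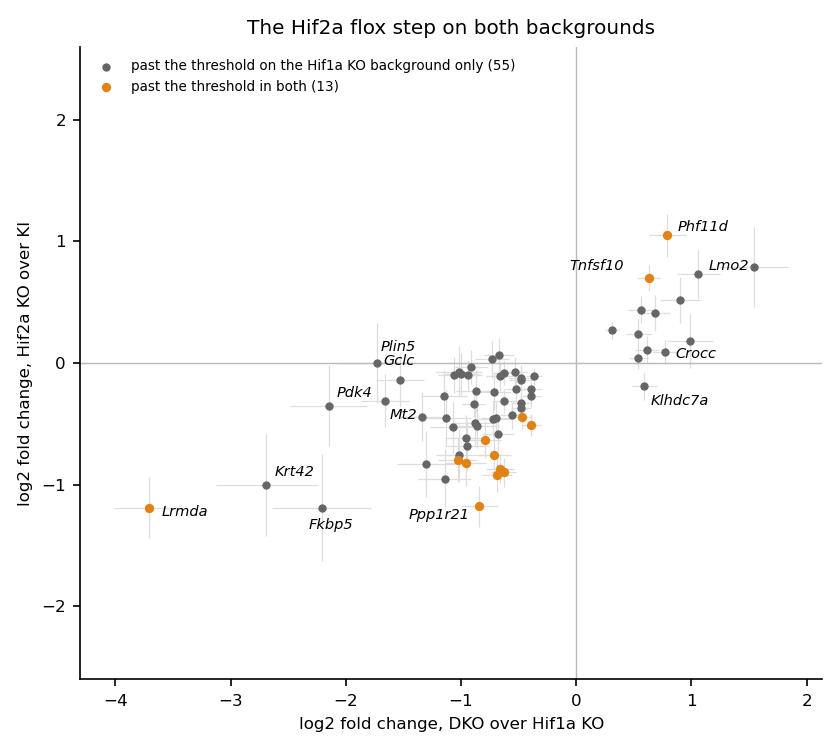
Log2 fold change of DKO over Hif1α KO (x axis) and of Hif2α KO over KI (y axis) for 68 of the 69 genes past the threshold in the first comparison, with standard errors as bars; Gm6969, at 6.49 and 7.07, lies outside the axes. Orange points passed in both comparisons, and on the y axis Plin5 lies at 0.00, Gclc at -0.14 and Pdk4 at -0.35.

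Both groups were also read against KI kidneys, the libraries of which are shared by these readings. Over the 54 lower genes the median log2 fold change was 0.28 for Hif1α KO over KI and -0.53 for DKO over KI kidneys. Since these genes were chosen for a DKO level below that of Hif1α KO kidneys, the choice itself pushes the medians apart, and they are given as a description. In 26 of the 54 the DKO mean was the nearer of the groups to the KI mean. Pdk4 gave 1.33 and -0.82, and Plin4 gave -0.25 and -1.28.

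Markers of nephron segments and other cells did not pass. The summed TPM of 24 proximal tubule markers was 5017, 2263, 3063 and 2734 in Hif1α KO and 3125, 5993 and 3619 in DKO kidneys, with overlap. Its most abundant member over all 17 libraries, Kap, an androgen-dependent gene, was at 164, 19.1, 52.6 and 36.3 CPM (Hif1α KO) and 181, 610.4 and 98.8 CPM (DKO), a log2 fold change of 2.13 (edgeR, Benjamini-Hochberg adjusted p = 0.233). DKO replicate 2 was the highest in both. Over the 15 alternative fits the log2 fold change of Kap ranged from 1.04 to 3.05. Proximal tubule markers had a median of 0.02 (12 of 24 were negative, and 1 higher and 2 lower at an unadjusted p under 0.05), and genes that differ between male and female kidneys, which include Kap, one of -0.20 with 0 of 12 past the threshold. Of these 12 sex-biased genes 7 were negative, and 3 were higher and 1 lower at that p. Y-linked Kdm5d was at 10.9, 10.0, 9.31 and 9.88 CPM (Hif1α KO) and 11.5, 12.7 and 10.9 CPM (DKO), so Y-linked RNA was present in all 7 kidneys. Of the thick ascending limb, distal convoluted tubule, principal cell and intercalated cell lists 0 members passed, and the medians were 0.21, 0.02, 0.51 and 0.29. In that order 8 of 9, 5 of 10, 10 of 11 and 7 of 11 were positive, against 50.5% of all genes tested. At an unadjusted p under 0.05 the numbers higher were 0, 0, 2 and 2, against 6.56% of all genes tested. The numbers lower were 0, 0, 1 and 1, against 6.41%. The most abundant members of these lists by CPM were Umod at 0.27, Slc12a3 at 0.35, Aqp3 at 0.06 and Car2 at 0.12. Podocyte (Podxl, -0.05), endothelial (Plvap, 0.09), fibroblast and matrix (Ccn2, -0.76) and renin cell (Ren1, 0.17) lists had medians between -0.04 and 0.17 and 0 members past the threshold. In the fibroblast and matrix list 6 of 17 were negative, and 5 higher and 3 lower at an unadjusted p under 0.05, against 49.5%, 6.56% and 6.41% of all genes tested. The part of cell composition in the genes above was not tested.

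**Figure D5:**
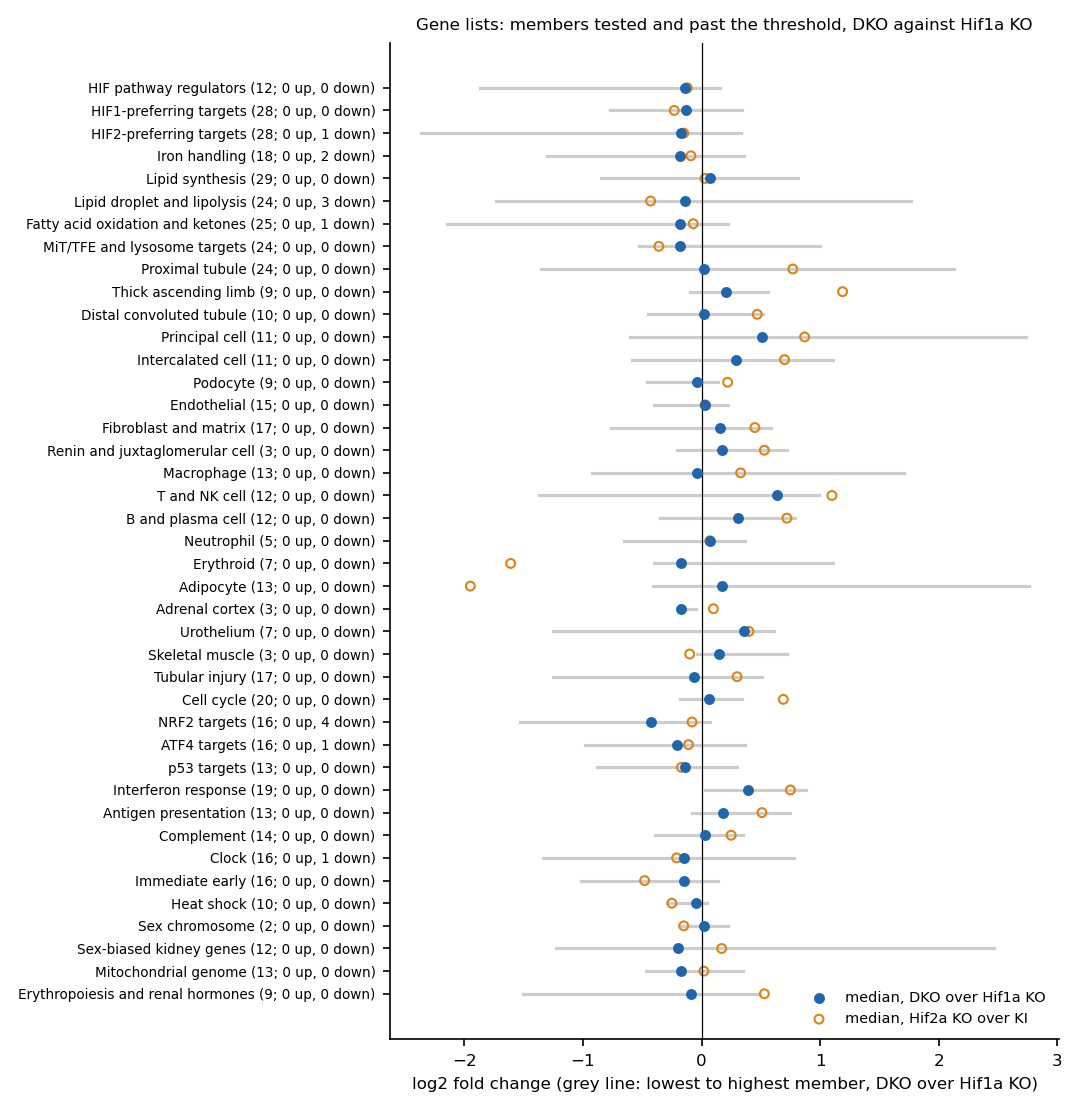
Median log2 fold change of each of 41 gene lists in DKO over Hif1α KO (blue) and Hif2α KO over KI kidneys (orange rings), with the lowest to highest member in grey for the first. The numbers tested and past the threshold in DKO against Hif1α KO stand beside each name; the NRF2 list has 4 lower members and the interferon list has all of its members above 0.

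Of the interferon response list 19 of 19 members were tested, 0 passed, all 19 had positive values and 11 were higher at an unadjusted p under 0.05, with a median of 0.39. Over all genes tested 50.5% had positive and 49.5% negative values, and 6.56% were higher and 6.41% lower at that p. Its summed TPM was 388, 442, 418 and 447 in Hif1α KO and 628, 569 and 582 in DKO kidneys, without overlap. In Hif2α KO against KI kidneys 10 of the 19 passed as higher, as did 0.741% of all genes tested, and the median was 0.75. Its most abundant member, Ifit3, was at 97.3, 104, 79.3 and 80.2 CPM (Hif1α KO) and 118, 109.7 and 116 CPM (DKO), a log2 fold change of 0.34 (edgeR, Benjamini-Hochberg adjusted p = 0.444). T and NK cell markers had a median of 0.64 and 0 of 12 past the threshold, with Thy1 at 0.65; 2 of 12 were negative, and 1 higher and 1 lower at an unadjusted p under 0.05. Macrophage markers had a median of -0.04 and spanned -0.92 for Cd163 to 1.71 for Cx3cr1, and 0 of 13 passed; 9 of 13 were negative, and 2 higher and 5 lower at an unadjusted p under 0.05. Cd68 was at 476, 732, 510.0 and 625 CPM (Hif1α KO) and 577, 351 and 348 CPM (DKO), with overlap. B and plasma cell markers had a median of 0.31, with 11 of 12 positive, but 0 were higher or lower at an unadjusted p under 0.05. Their member of highest mean CPM, Ighm, ranged from 677 to 7891 CPM (Hif1α KO) and from 2674 to 6611 CPM (DKO). Csf3r of neutrophils gave 0.37, with a median of 0.07 over 5 tested markers. Antigen presentation (B2m, -0.08) and complement (C3, -0.25) lists had medians of 0.18 and 0.03 and 0 members past the threshold. For the first, 3 of 13 were negative, and 4 higher and 0 lower at an unadjusted p under 0.05, and for the second, 6 of 14 were negative, and 0 higher and 0 lower at an unadjusted p under 0.05.

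Of MiT/TFE and lysosome targets 24 of 25 were tested, 0 passed and 21 had negative values, with a median of -0.18; 1 was higher and 5 were lower at an unadjusted p under 0.05. Gpnmb, a strong TFE3 target, was at 3269, 7175, 4539 and 7452 CPM in Hif1α KO and 6415, 2806 and 3113 CPM in DKO kidneys, with overlap, and from 0.993 to 2.14 CPM in Cre(-) kidneys. The remaining lists had 0 members past the threshold, and each is given by its median and its member of highest mean CPM over all 17 libraries. Immediate early genes had a median of -0.15, and 12 of 16 were negative, and 0 higher and 4 lower at an unadjusted p under 0.05; Nr4a1, at 0.14, was their highest member. Targets of p53 had a median of -0.14, and 10 of 13 were negative, and 0 higher and 5 lower at an unadjusted p under 0.05, with Ccng1 at -0.07. The mitochondrial genome had a median of -0.17, and 12 of 13 were negative, and 0 higher and 2 lower at an unadjusted p under 0.05, with mt-Co1 at -0.18. Over all genes tested 49.5% were negative, and 6.56% were higher and 6.41% lower at that p. Medians were 0.06 for the cell cycle (Ccnd1, above), -0.06 for tubular injury (Spp1, -0.16), -0.05 for heat shock (Hspa8, -0.01) and -0.09 for renal hormones (Agt, -0.53). For red cells (Hbb-bs, -0.07), adrenal cortex (Star, -0.17), urothelium (Upk1a, 0.36) and muscle (Ckm, 0.15) they were -0.17, -0.17, 0.36 and 0.15.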

How the data were processed

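Poly(A) RNA of whole mouse kidneys was sequenced in single 75 nt reads. Per the submitters' processing notes, reads were trimmed with Trim Galore 0.6.6 and cutadapt 2.5 and aligned with STAR 2.7.9a; the notes name the builds hg38 and GRCm38. The authors deposited expected counts per transcript and, in a separate table, TPM per transcript. Of 119353 transcripts, 116770 (97.8%) matched GENCODE M21 and were summed to 35971 genes. Python 3.11.15, pandas 2.3.3 and matplotlib 3.10.9 made tables and figures. In R 4.3.3, edgeR 4.0.16 fitted all 17 libraries by group with TMM scaling, a filter (filterByExpr, minimum count 10) that left out 18960 genes, and Benjamini-Hochberg adjustment at 0.05; the code was tested on simulated data. Alternatives were DESeq2 1.42.0 (counts rounded), its size factors, no filter, fewer groups, a replicate block, limma 3.58.1 on log2 TPM and leaving out each library. limma on log2(TPM + 1) and log2(TPM + 0.1) moved the median over all genes to 0.1 and 0.12.

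Named genes were Hif1a and Epas1; in each direction the 12 with the largest fold change past the threshold with mean TPM of at least 1 and no overlap, and the 5 of smallest p; for the difference of steps the 3 of smallest p in each direction, as none passed; up to 6 passing members of each list, or the member of highest mean CPM; the 4 members of highest mean TPM in the HIF target lists; and Epo, Egln3 and Plin2. Unnamed gene models were passed over. Per1, Tsc22d3, Zbtb16, Sgk1, Cpt1a, Cyp4a14, Angptl4, Ehhadh, Ppara, Gm6969, Cox7a2l, Ppp1r21, Ston1, Acot2, Eci2 and Acsl4 were chosen after their values were seen. The members and lists were chosen with earlier results of these data known. Promoter sequences are from RefSeq (GRCm38.p6).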

Additional observations from a re-analysis of the deposited data

Results flagged for a closer look

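Among 95 values looked at in the 4 Hif1α KO kidneys, 3 had a library far from the others, by a gap to its nearest neighbour, as a share of the group's range, above Dixon's critical value for 4 samples. Chance gives this in about 1 in 20 groups. For Acot1 replicate 3 was low, at 102.8 CPM, with a gap of 0.86 of the range. For Ccng1 the same replicate was low, at 169.3 CPM, with a gap of 0.941. For Cfd, an adipocyte marker, replicate 2 was high, at 183.3 CPM, with a gap of 0.867. The causes were not tested.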

How the results depend on the processing

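All 39 named genes past the threshold in DKO against Hif1α KO kidneys kept their sign under all 15 alternatives, and 305 of their 585 values there also passed. The counts depended on the processing. The 15 higher and 54 lower genes became 154 and 264 with DESeq2's Wald test, 35 and 129 with only the groups of the contrast, 2 and 15 without the Cre(-) libraries, 50 and 24 with limma on log2(TPM + 1), and 30 and 15 with limma on log2(TPM + 0.1). With 1 library left out they ranged from 2 to 11 and from 4 to 24. DESeq2's size factors gave 14 and 44, and no filter 11 and 44. The limma fits used TPM without TMM scaling, and their medians over all genes were 0.1 and 0.12, against 0.002 in the main fit. For the difference of the steps DESeq2 called 31 genes in place of 0, and leaving out 1 library gave 0 to 2. The 236 genes of Hif2α KO against KI kidneys became 1015 with DESeq2, 2 with only these groups, 69 without the Cre(-) libraries and 83 with limma on log2(TPM + 0.1), and ranged from 13 to 857 with 1 library left out. The causes were not tested.

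DKO and Hif1α KO libraries of the same replicate number correlated at -0.206, -0.151 and -0.195 across genes, as deviations from their group means. These 3 values cannot show whether the numbers paired the mice, and the main fit used no pairing. With replicate number as a block the counts were 3 higher and 10 lower, and 76 for Hif2α KO against KI kidneys, while Ighm turned to -0.02 and Hspa8 to 0.02.

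Genes that missed the threshold near 0 changed sign. With both limma settings Epas1 was at 0.02, Ccnd1 at 0.03, Trappc12, Vegfa, Podxl, Ccng1 and B2m at 0.04, and Hspa8 at 0.14, and Hbb-bs was at 0.31 and 0.32. With 1 library left out, values ranged from -0.04 to 0.08 for Hif1a, -0.13 to 0 for Trappc12, -0.02 to 0.19 for Egln3, -0.26 to 0.06 for Ccnd1, -0.11 to 0.01 for Vegfa, -0.12 to 0.74 for Slc12a3, -0.01 to 0.23 for Aqp3 and -0.15 to 0.09 for Podxl. They ranged from -0.25 to 0.83 for Ighm, -0.31 to 0.6 for Hbb-bs, -0.82 to 1.66 for Cfd, -0.08 to 0.67 for Upk1a, -0.12 to 0.31 for Ckm, -0.19 to 0.02 for B2m and -0.07 to 0.07 for Hspa8.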
